A study of Mus musculus with 4 samples.

Results

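White adipocyte nuclei were the 5935 nuclei, of 32552 in all (18.2%), that the authors' deposited annotation of the nuclei placed in the cluster Adipocyte. They came from single-nucleus ATAC-seq, which marks open chromatin by inserting sequencing adapters into it, of mouse inguinal adipose tissue, the subcutaneous fat of the groin. The 21 male C57BL/6J mice were 8 weeks old, had been bought at 6 weeks, and formed 7 groups of 3, with no transgene or deleted gene in any of them. The day0RT mice were kept at room temperature (22 °C) with no intervention. The day1C, day3C and day7C mice were exposed to cold (6.5 °C) for 1, 3 or 7 days, and the day1CL, day3CL and day7CL mice received CL-316,243 (CL), an agonist selective for the β3-adrenergic receptor, at 1 mg/kg over the same times. The nuclei were deposited as 4 sequencing lanes, and the study merged the reads of more than 1 sequencing run. Each nucleus was assigned to its mouse and its cluster by the authors' nucleus annotation.

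White adipocytes store triglyceride in a single large droplet, release fatty acids by lipolysis when noradrenaline reaches their β-adrenergic receptors, and secrete hormones such as adiponectin and leptin. They also make new fatty acids from glucose-derived citrate: Acly splits citrate into acetyl-CoA, Acaca carboxylates it, Fasn builds palmitate, Elovl6 lengthens it and Scd1 desaturates it. Cold and β3-agonists are known to activate lipolysis and, over days, to turn part of this tissue into beige fat, whose thermogenic adipocytes burn fuel through Ucp1.

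The deposited matrix holds, for each nucleus and each of 189598 peaks, whether reads were present. A count is therefore the number of nuclei open at a peak, and the count of a gene is the sum over the peaks in its body and the 2000 bases upstream. Counts were summed over the white adipocyte nuclei of each mouse and are given as CPM, the counts of a library scaled to a common total; this is accessibility, not RNA. A shift in the mixture of adipocyte states within the cluster cannot be told apart from a change in every nucleus. P-values combine counting error with a spread between mice estimated over all 7 groups. That spread was small (common dispersion 0.0034 for genes and 0.0013 for peaks), so mice with many counts weigh most. For 3 against 3 mice without overlap, an exact two-sided permutation test gives at best p = 0.1. How many of all genes lack overlap was not counted.

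The white adipocyte label was checked against Adipoq (adiponectin), Pparg (the nuclear receptor of adipocyte differentiation), Cmklr1 (the chemerin receptor) and Car3 (carbonic anhydrase 3). These genes may have helped to annotate the clusters, so the levels are a description. Adipoq stood at 153 ± 44.4 CPM (SD, n = 21 mice) against 126 CPM in the beige adipocyte cluster and 89.8 CPM in CD4 T cells. Cmklr1 reached 286 ± 50.4 CPM against 171 CPM in macrophages, and Car3 431 ± 66.1 CPM against 241 CPM in the vascular smooth muscle cluster. Pparg was as open in white (584 ± 74.3 CPM) as in beige adipocytes (608 ± 83.9 CPM), with 333 CPM in vascular endothelial cells. The label held for 3 of the 4 markers against every other cluster and, for Pparg, against the 10 clusters that are not adipocytes.

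**Figure D1:**
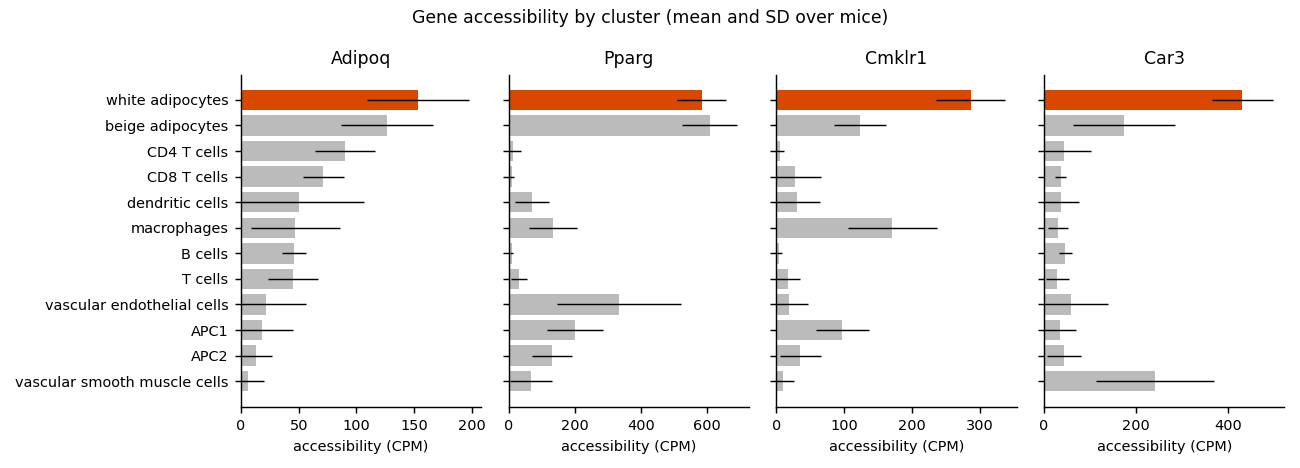
Mean accessibility (CPM) of Adipoq, Pparg, Cmklr1 and Car3 in the 12 annotated clusters, with the SD over mice as error bars. White adipocytes (orange) are highest for Adipoq, Cmklr1 and Car3, and beside beige adipocytes for Pparg.

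Among the 6313 genes with at least 50 CPM in white adipocyte nuclei, 22 were at least 5 times as open as in the highest cluster other than beige adipocytes. Pck1, which makes the glycerol backbone of triglyceride in fat, had the largest ratio, with 163 ± 59.9 CPM against 9.15 CPM in the APC1 progenitor cluster (17.9 times). Adrb3, the receptor that CL activates, followed with 152 CPM (12.3 times), and Cidec, a lipid droplet fusion protein, with 190 CPM (11.5 times). Clstn3 (9.70 times), Lep (leptin, 9.34 times) and Cyp2e1 (a cytochrome P450, 7.84 times) came next. In beige nuclei Pck1, Adrb3 and Cidec stood at 152, 147 and 177 CPM, near their white levels, Clstn3 at 166 CPM against 119 CPM in white nuclei, and Lep and Cyp2e1 at 119 and 83.1 CPM against 215 and 174 CPM. Per kilobase of peak, the most open of the named genes was Fabp4, the fatty acid carrier, at 91.7 CPM per kb, followed by Pck1 at 79.4, Car3 at 74.5, the droplet coat gene Plin4 at 74.2 (29.1% of its counts lie in peaks shared with another gene), the transcription factor gene Cebpa at 69.4, Plin1 at 67.0 and Cidec at 65.1.

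Markers of blood, progenitor and endothelial cells were low in white adipocyte nuclei but none was at 0 in all libraries. Summed over the 5 B cell markers, white adipocyte nuclei held 114 CPM, 8.62% of the sum in B cells, with Pax5 the most abundant at 77.6 CPM. The sum over 7 T cell markers was 61.8 CPM (4.84% of that in T cells), over 4 macrophage markers 55.5 CPM (13.9%), over 5 progenitor markers 78.2 CPM (16.5%) and over 5 endothelial markers 171 CPM (15.3%). Mural markers summed to 134 CPM, 145% of the sum in the cluster annotated as vascular smooth muscle, but that cluster held only 92.5 CPM of them and 881 CPM of the 5 skeletal muscle markers, which summed to 111 CPM (12.6%) in white adipocyte nuclei. The 3 measured epithelial markers summed to 97.5 CPM, mostly Elf5 at 85.1 CPM, with no epithelial cluster annotated for comparison. The 6 beige markers summed to 858 CPM, 47.2% of the beige sum, but Ucp1 stood at 5.60 ± 3.15 CPM against 54.9 ± 36.2 CPM in beige nuclei and was too low to test.

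The libraries were unequal, and several stood apart. White adipocyte nuclei numbered 172, 144 and 263 in the 3 day0RT mice, 382, 177 and 204 in day1C, 604, 198 and 191 in day3C, and 204, 206 and 241 in day7C. The CL mice had 23, 63 and 559 nuclei on day 1, 162, 847 and 374 on day 3, and 377, 271 and 273 on day 7. More than 1 in 2 white nuclei of the group therefore came from replicate 1 in day1C and in day3C, replicate 3 in day1CL and replicate 2 in day3CL. The counts on genes ran from 34469 in replicate 1 of day1CL to 2862029, and the median count per white nucleus from 1341.5 in replicate 2 of day0RT to 6755 in replicate 1 of day7CL.

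In most mice B and T cells made up 58.2% to 90.8% of the nuclei, but in replicate 1 of day3C, replicate 3 of day1CL and replicate 2 of day3CL they made up 36.8%, 11.9% and 14.1%. White adipocytes were correspondingly 38.9%, 50.3% and 68.2% of the nuclei of these mice, against 1.66% to 27.4% in the other 18. The cell barcodes were not unique either: 4218 sequences occurred in more than 1 mouse. Each time these were mice of the same treatment and replicate number on different days. Such a sequence was carried by 1703 white adipocyte nuclei (28.7%), against 26.8% of all nuclei.

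**Figure D2:**
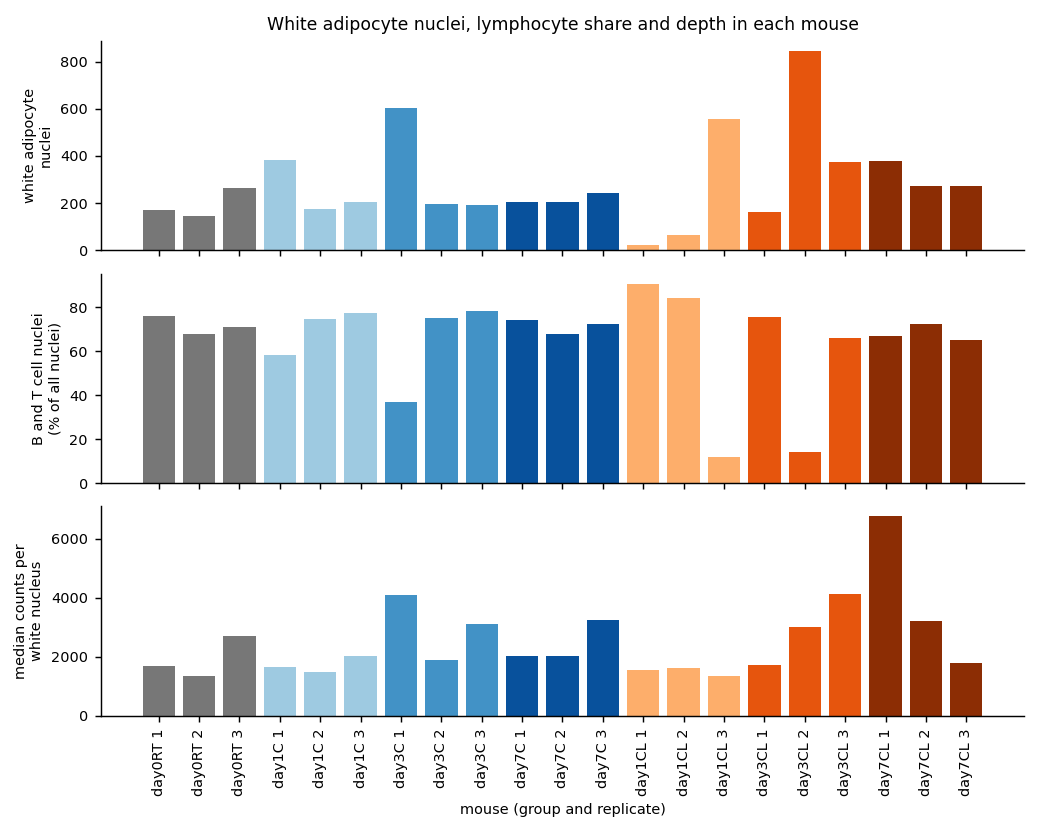
White adipocyte nuclei (number), B and T cell nuclei (% of all nuclei) and median counts per white adipocyte nucleus in each of the 21 mice, coloured by group. The 3 mice with few lymphocytes and the 2 day1CL mice with 23 and 63 white nuclei stand apart.

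The share of white adipocytes among all nuclei was 11.9% ± 3.63 (SD, n = 3) in day0RT, 16.9% ± 9.02 in day1C, 20.5% ± 15.9 in day3C and 13.7% ± 2.66 in day7C, and 18.9% ± 27.3 in day1CL, 34.3% ± 29.7 in day3CL and 18.2% ± 2.44 in day7CL. None of the 6 differences from day0RT passed the test (edgeR's quasi-likelihood test with Benjamini-Hochberg adjustment over 72 tests, adjusted p from 0.400 to 0.982; 1 of the 72 tests over 12 clusters was called and 11 had an unadjusted p under 0.05). Without replicate 1 the day3C difference changed from 0.79 to -0.071 on the log2 scale, and without replicate 3 the day1CL difference changed from 0.67 to -1.90. An exact two-sided permutation test of each pair of groups, whose smallest possible p with 3 against 3 mice is 0.1, gave 0.2 for day3CL and day7CL, 0.5 for each of the 3 cold groups and 1 for day1CL.

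Relative to day0RT, the number of genes called grew with the days of treatment and was larger under CL than in the cold of the same day. Of 13508 genes tested in white adipocyte nuclei, 8 rose (0.0592%) and 19 fell (0.141%) in day1C, 0.2% together. In day3C 90 rose (0.666%) and 60 fell (0.444%), 1.11% together, and in day7C 153 rose (1.13%) and 100 fell (0.74%), 1.87% together. Under CL, 115 rose (0.851%) and 146 fell (1.08%) on day 1, 1.93% together, 378 rose (2.8%) and 212 fell (1.57%) on day 3, 4.37% together, and 536 rose (3.97%) and 375 fell (2.78%) on day 7, 6.74% together. The calls came from edgeR's quasi-likelihood test on 3 mice a group with Benjamini-Hochberg adjustment over all genes, at an adjusted p under 0.05; all 6 comparisons share the 3 day0RT mice. In at least 1 of the 6 groups 757 genes rose and 532 fell, and 1 gene did both in different groups. The uncharacterised gene A930004D18Rik was the 1 that rose in all 6 groups (log2 0.62 to 0.97), and Endou, an endoribonuclease, the 1 that fell in all 6 (-0.73 to -1.09).

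The order by day did not hold for peaks. The order by day or by treatment did not hold for promoter peaks only, for nuclei of 1000 to 4000 counts, or without replicate 3 of day1CL, replicate 2 of day3CL, replicate 1 of day7CL, replicate 1 or 2 of day7C or the 3 mice of few lymphocytes. Single mice moved the counts by more than 1.5 times. Without replicate 1, 2 or 3 of day0RT, the day1C count of 27 became 54, 10 or 0 genes and the day3C count of 150 became 64, 65 or 60. The same omissions left 100, 91 or 130 genes for day7C, 243, 347 or 264 for day3CL, and 441, 481 or 407 for day7CL, and that of day1CL became 153 or 114 without replicate 1 or 3. Among the treated mice, day1C fell to 8 or 3 genes without replicate 2 or 3, day3C to 75 or 98 without replicate 1 or 2, and day7C to 73 or 139 without replicate 1 or 2. The day1CL count fell to 4 genes without replicate 3, that of day3CL to 182 without replicate 2, and that of day7CL to 117 without replicate 1, the mouse with the deepest nuclei. With the 3 mice of few lymphocytes left out, a choice made after the data were seen, 72 genes were called in day3C, 4 in day1CL and 195 in day3CL. With only nuclei of 1000 to 4000 counts, also chosen after the data were seen, the 6 counts became 8, 27, 25, 50, 117 and 44.

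Genes of de novo lipogenesis rose in several groups. This list, like those below, was chosen with earlier results of these data known. The study had already reported more accessible lipogenic genes in adipocytes of these mice. The counts beside the shares of all genes are therefore a description. Of the 20 in the list, 10 rose in day3CL, 8 in day7C, 6 in day3C, and 4 each in day1CL and day7CL, while none passed the test in day1C. Of all genes tested, 2.8%, 1.13%, 0.666%, 0.851% and 3.97% rose in these 5 groups in the same order, and 0.0592% in day1C. In the first 3 of these groups no gene of the list fell. Fads3, a desaturase-family gene, fell in day1CL, where 1.08% of all genes fell, and Fads3, Fads2 and Scd1 fell in day7CL, where 2.78% did. With the replicate number as a block Fads2 was not called (edgeR adjusted p = 0.059). The median log2 change of the 20 genes was 0.47 in day3CL, 0.41 in day7C, 0.31 in day1C and day3C, 0.24 in day7CL and 0.10 in day1CL, where the median over all genes tested lay between -0.01 and 0.00. In day3CL the count of risen genes was 8 without replicate 2 of day3CL, 8 without the 3 mice of few lymphocytes, and 9 with nuclei of 1000 to 4000 counts. It fell to 5 with promoter peaks alone. For day7C it was 4 without replicate 1 of day7C and 5 without replicate 2 of day0RT, and for day3C it was 1 without replicate 3 of day0RT and 3 without replicate 1 or 2 of day0RT or replicate 1 of day3C. In day1CL none remained called without its replicate 3, 2 rose without replicate 1 or 2 of day0RT, and none rose without replicate 3 of day0RT, and 2 rose and 1 fell in day7CL without its replicate 1.

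**Figure D3:**
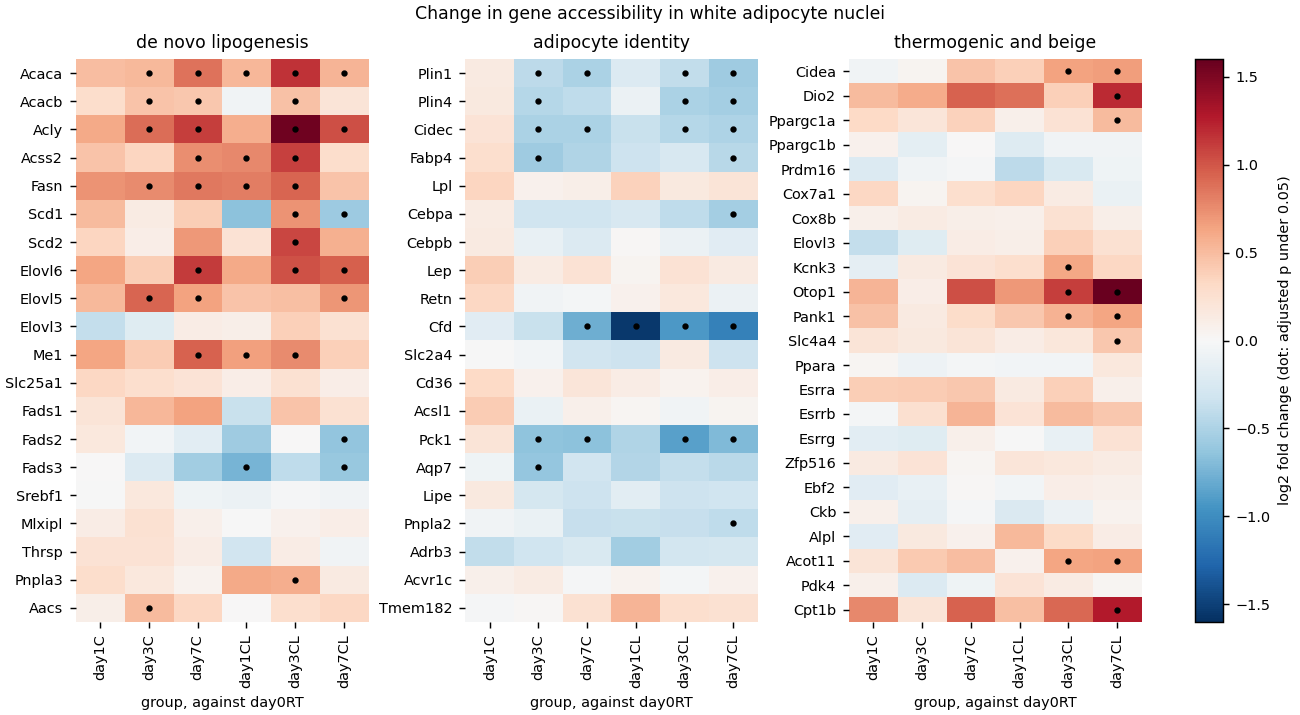
Log2 fold change against day0RT (colour) of the tested genes of 3 lists, de novo lipogenesis, adipocyte identity, and thermogenic and beige genes, in the 6 treated groups; dots mark an adjusted p under 0.05. Red with dots gathers among the lipogenic genes in day3CL and day7C, and blue with dots among droplet and adipokine genes of the identity list.

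Acly, the ATP-citrate lyase that supplies acetyl-CoA, had the largest fitted rise of the list in day3CL. Its accessibility was 95.5, 74.4 and 89.0 CPM in the day0RT mice. In the cold it was 108, 191 and 129 CPM on day 1, 180, 171 and 125 CPM on day 3, and 254, 193 and 137 CPM on day 7. Under CL it was 87.0, 146 and 132 CPM on day 1, 364, 283 and 178 CPM on day 3, and 217, 159 and 117 CPM on day 7. Every cold-exposed and CL-treated mouse exceeded all 3 day0RT mice except replicate 1 of day1CL, the library of 23 nuclei. Acly rose by 1.56 ± 0.19 (log2, SE) in day3CL (edgeR adjusted p = 1.2e-08), a call kept without any single mouse and without the 3 mice of few lymphocytes. It also rose by 0.89 ± 0.20 in day3C, 1.11 ± 0.21 in day7C and 1.04 ± 0.20 in day7CL. These calls were lost without replicate 1 of the treated group (edgeR adjusted p = 0.16, 0.052 and 0.16), and that of day3C also without replicate 2 or 3 of day0RT (0.058 and 0.11).

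Acaca, whose product makes malonyl-CoA, was at 332, 350 and 355 CPM in day0RT. The cold-exposed mice had 406, 607 and 496 CPM on day 1, 523, 501 and 449 CPM on day 3, and 787, 618 and 507 CPM on day 7. The CL-treated mice had 348, 553 and 503 CPM on day 1, 813, 878 and 614 CPM on day 3, and 533, 485 and 475 CPM on day 7. The 3 day0RT values lay close together and below every treated mouse but replicate 1 of day1CL. Acaca rose by 0.87 ± 0.13 in day7C (edgeR adjusted p = 1.0e-05) and by 1.16 ± 0.12 in day3CL (6.6e-11), and both calls held without any single mouse. With the promoter peaks of Acaca alone the fitted changes had the opposite sign, -0.58 in day7C and -0.50 in day3CL, and passed no test, so the rise lay in peaks of the gene body.

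Elovl6, which lengthens palmitate to stearate, was at 201, 127 and 164 CPM in day0RT, at 535, 294 and 269 CPM in day7C, at 444, 336 and 280 CPM in day3CL and at 372, 292 and 266 CPM in day7CL. Each of these treated groups lay above all day0RT mice. It rose by 1.12 ± 0.17, 1.02 ± 0.16 and 0.95 ± 0.16 (edgeR adjusted p = 1.0e-05, 7.4e-06 and 3.6e-05), and no omission of a single mouse removed the calls. Fasn, the fatty acid synthase, went from 119, 96.8 and 116 CPM in day0RT to 203, 245 and 181 CPM in day3CL and rose by 0.93 ± 0.16 (7.8e-05). Scd2, a stearoyl-CoA desaturase, rose in day3CL by 1.07 ± 0.20 (2.4e-04), from 42.1 ± 5.45 to 83.7 ± 13.6 CPM. Malic enzyme Me1, a source of NADPH, rose from 205 ± 5.51 CPM by 0.94 ± 0.15 in day7C and by 0.76 ± 0.14 in day3CL. Elovl5, an elongase of polyunsaturated fatty acids, rose by 0.94 ± 0.15 in day3C (4.1e-05). All of these calls were kept without any single mouse.

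**Figure D4:**
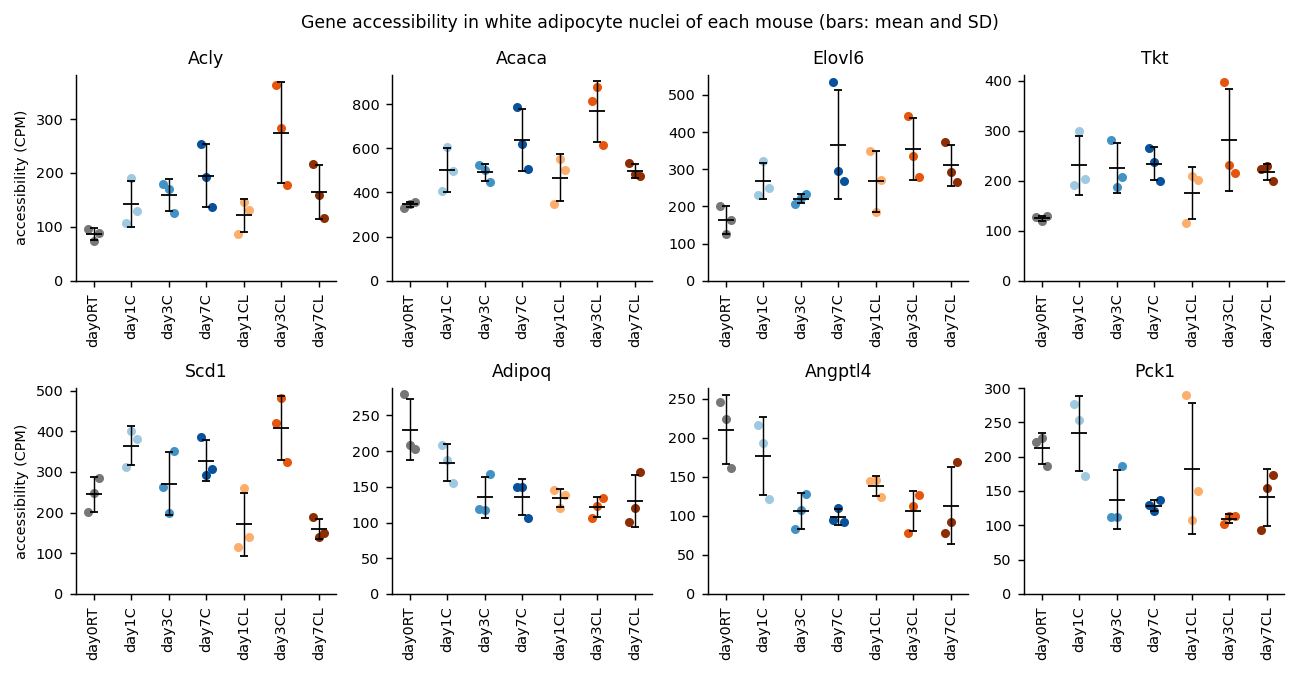
Accessibility (CPM) of 8 genes in the white adipocyte nuclei of each mouse (points), with the group mean and SD (bars). The group means of Acly, Acaca, Elovl6 and Tkt are lowest in day0RT, those of Adipoq and Angptl4 are highest in day0RT and day1C, and Scd1 differs between cold and CL in opposite directions on days 3 and 7.

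At the level of single peaks, of 32541 tested, 18 rose (0.0553%) and 25 fell (0.0768%) in day1C, 0.132% together, 182 rose (0.559%) and 135 fell (0.415%) in day3C, 0.974% together, and 107 rose (0.329%) and 51 fell (0.157%) in day7C, 0.486% together. Under CL, 201 rose (0.618%) and 239 fell (0.734%) on day 1, 1.35% together, 719 rose (2.21%) and 356 fell (1.09%) on day 3, 3.3% together, and 515 rose (1.58%) and 334 fell (1.03%) on day 7, 2.61% together. The 1069 peaks that rose in any group lay near a gene start in 6.74% of cases, inside genes in 54.0% and between genes in 39.3%. For the 734 peaks that fell these shares were 24.4%, 40.6% and 35.0%, and for all tested peaks 29.7%, 42.2% and 28.1%, given as a description. Without replicate 3 the day1CL count of 440 became 0, without replicate 2 that of day3CL (1075) became 252, and without replicate 1 those of day7CL (849), day7C (158) and day3C (317) became 101, 36 and 165, with 87 in day7C without its replicate 2. The day0RT mice mattered as well: without replicate 1, 2 or 3 of day0RT, 177, 145 or 64 peaks were called in day3C, 74, 68 or 54 in day7C, 561, 714 or 343 in day3CL and 488, 501 or 252 in day7CL. For day1CL 162 remained without replicate 3 of day0RT, and for day1C (43) the counts ran from 2 to 127 over the 6 omissions (127, 13 and 2 without replicates 1, 2 and 3 of day0RT, and 18, 14 and 72 without those of day1C).

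Sequence windows are shown for 4 peaks of lipid genes whose accessibility rose or differed between the treatments, chosen after their values were seen. They are on the plus strand of mm10 (GRCm38), and capitals mark the match of a motif searched on both strands. The Acly window, chr11:100505724-100505849, is in an intron and lies in a peak that also overlaps a coding exon, 22372 bases from the gene start. The Fasn window, chr11:120804533-120804658, is outside the gene, in a peak that reaches over its 3′ end. The Tkt window, chr14:30553700-30553790, is in an intron, and the Scd1 window, chr19:44394123-44394249, is outside the gene in a peak over its 3′ end. Capitals are the NFI site core TTGGCA on the minus strand (Acly, Fasn), the glucocorticoid receptor pattern ACANNNTGT (Tkt) and the AP-1 pattern TGANTCA (Scd1).
Acly peak window: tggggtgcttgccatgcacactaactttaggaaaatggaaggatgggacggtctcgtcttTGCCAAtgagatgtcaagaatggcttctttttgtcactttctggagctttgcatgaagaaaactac
Fasn peak window: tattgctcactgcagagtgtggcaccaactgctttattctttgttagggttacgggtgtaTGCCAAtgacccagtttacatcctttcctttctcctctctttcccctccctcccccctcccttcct
Tkt peak window: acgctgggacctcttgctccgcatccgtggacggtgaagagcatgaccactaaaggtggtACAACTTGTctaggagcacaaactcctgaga
Scd1 peak window: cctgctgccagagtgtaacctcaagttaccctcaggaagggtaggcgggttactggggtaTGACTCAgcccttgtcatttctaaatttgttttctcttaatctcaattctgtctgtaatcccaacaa
These letters were common: TTGGCA was present in 48.1% of all tested peaks, 55.8% of those that rose and 47.4% of those that fell, ACANNNTGT in 23.0%, 26.8% and 28.6%, and TGANTCA in 22.6%, 25.9% and 21.3%. The MEF2 pattern CTATTTTTA was in 1.85% of all tested peaks, 3.55% of those that rose and 0.681% of those that fell. The CRE TGACGTCA was in 2.02%, 0.468% and 2.32%. The median GC content of the peaks that rose was 46.6%, against 50.6% for all tested peaks and 51.5% for those that fell, and their median lengths were 808, 868 and 891 bases; a match is a description and not a bound site.

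The Acly peak, chr11:100504918-100506339, was nearly closed at room temperature. It was open in 0, 1 and 6 nuclei of the day0RT mice (0, 2.95 and 5.85 CPM), and in 43, 201 and 66 nuclei of the day3CL mice (91.5, 59.2 and 30.9 CPM). The cold-exposed mice had 13.0, 46.0 and 16.4 CPM on day 1, 35.6, 25.0 and 15.6 CPM on day 3, and 47.2, 18.2 and 20.6 CPM on day 7. No treated mouse fell within the day0RT range, although day1CL rests on 1, 3 and 33 nuclei. The Acly peak rose by 3.85 ± 0.36 (log2) in day3CL (edgeR adjusted p = 6.5e-20), by 3.05 in day3C, 2.92 in day7C and 3.32 in day7CL, and these 4 calls held without any single mouse. The rises in day1C (2.47) and day1CL (2.60) were lost without replicate 2 of day1C (edgeR adjusted p = 0.17) and replicate 3 of day1CL (0.60). With so few nuclei at room temperature the size of these changes is loosely set, and DESeq2 called only the day3CL change.

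The Fasn peak, chr11:120803546-120806168, went from 40.7, 35.4 and 36.1 CPM in day0RT to 99.7, 94.4 and 59.1 CPM in day7C and 97.9, 109 and 74.3 CPM in day3CL, with no overlap between the groups. It rose by 1.16 and 1.44 (log2; edgeR adjusted p = 4.7e-04 and 1.7e-10), calls kept without any single mouse. The Tkt peak, chr14:30553042-30553790, in the gene of transketolase, an enzyme of the pentose phosphate pathway that supplies NADPH, was open in 9, 2 and 14 nuclei of the day0RT mice (17.4, 5.91 and 13.7 CPM). It stood at 39.7, 32.0 and 33.2 CPM in day3C and 44.7, 33.3 and 27.6 CPM in day3CL, above every day0RT mouse. Its rises in day3C (1.54) and day3CL (1.36) were kept without any single mouse.

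**Figure D5:**
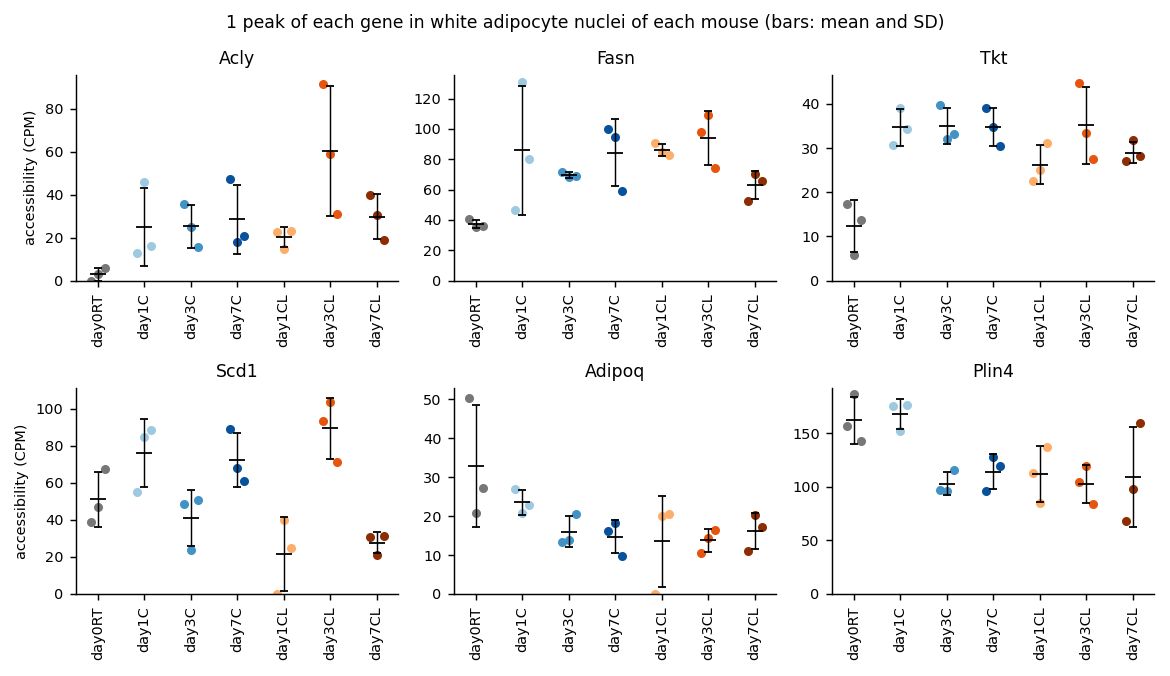
Accessibility (CPM) of 1 peak of each of 6 genes in the white adipocyte nuclei of each mouse (points), with the group mean and SD (bars). The Acly, Fasn and Tkt peaks are lowest in day0RT, and the Scd1 peak is high in day3CL and low in day7CL.

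Some genes of the mature fat cell fell. Of 20 adipocyte identity genes, 6 fell in day3C, 4 in day7C, 1 in day1CL, 5 in day3CL and 8 in day7CL, where 0.444%, 0.74%, 1.08%, 1.57% and 2.78% of all genes fell. None of the 20 passed the test in day1C, and none rose in any group. With the replicate number as a block Plin1 and Aqp7 were not called in day3C (edgeR adjusted p = 0.061 and 0.051), nor Cfd in day7C (0.053). The members that fell in day7CL were Cfd (adipsin), Plin1, Plin4, Cidec, Pck1, Cebpa, Fabp4 and Pnpla2 (the triglyceride lipase ATGL). Lep, Adrb3, Lipe and Slc2a4 of the same list were not called in any group. The median log2 change over the 20 genes was 0.15 in day1C and -0.20, -0.30, -0.20, -0.28 and -0.33 in day3C, day7C, day1CL, day3CL and day7CL. In day3C none was called without replicate 1 or 2 of day0RT or replicate 1 of day3C, 3 without replicate 3 of day0RT and 1 without replicate 2 of day3C. In day7C none was called without replicate 1 of day0RT or of day7C, and 1 without replicate 2 of day0RT or replicate 2 or 3 of day7C. None was called in day1CL without its replicate 3 or in day7CL without its replicate 1. In day7CL 4 and 5 fell without replicates 1 and 2 of day0RT, and in day3CL 2 fell without replicate 1 of day0RT and 3 without replicate 2 of day0RT or replicate 2 or 3 of day3CL.

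Adipoq, which encodes adiponectin, fell in 5 of the 6 groups. It stood at 279, 209 and 203 CPM in day0RT and at 208, 188 and 156 CPM in day1C, so those groups overlapped. The values were 120, 118 and 168 CPM in day3C, 150, 150 and 106 CPM in day7C, 145, 121 and 138 CPM in day1CL, 107, 124 and 134 CPM in day3CL and 101, 120 and 171 CPM in day7CL. Every mouse of these 5 groups lay below every day0RT mouse. Adipoq fell by 0.78 ± 0.14 (log2) in day3C, 0.78 ± 0.16 in day7C, 0.75 ± 0.18 in day1CL, 0.84 ± 0.14 in day3CL and 0.92 ± 0.15 in day7CL (edgeR adjusted p = 5.6e-04, 0.0017, 0.0090, 2.5e-05 and 1.1e-05). The calls in day3C, day3CL and day7CL were kept without any single mouse, that of day7C was lost without its replicate 3 (0.056), and that of day1CL without replicate 1 of day0RT (0.090) or its own replicate 3 (0.45). Of the other given markers, Car3 and Cmklr1 passed no test, and Pparg rose in 2 groups.

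Pparg, the nuclear receptor that drives adipocyte differentiation, was at 509, 514 and 445 CPM in day0RT, at 626, 654 and 661 CPM in day3C and at 656, 715 and 578 CPM in day7CL, with no overlap with day0RT. It rose by 0.42 ± 0.11 (log2) in day3C and 0.45 ± 0.11 in day7CL (edgeR adjusted p = 0.019 and 0.0042), the opposite direction to Adipoq. The day3C call was lost without any 1 of the 6 mice but replicate 2 of day0RT (0.054 to 0.23), and that of day7CL without replicate 3 of day0RT (0.087) or its own replicate 1 (0.050). With promoter peaks only neither was called (0.62 and 0.85).

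Angptl4, an inhibitor of lipoprotein lipase and a target of PPAR and glucocorticoid receptors, was at 246, 223 and 161 CPM in day0RT. It stood at 83.2, 107 and 128 CPM in day3C, 94.5, 110 and 91.5 CPM in day7C, and 77.6, 113 and 127 CPM in day3CL, all below the lowest day0RT mouse. It fell by 1.01 ± 0.17, 1.03 ± 0.19 and 0.80 ± 0.16 (log2; edgeR adjusted p = 1.3e-04, 4.8e-04 and 6.1e-04), and no omission of 1 mouse removed these calls. Pck1 went from 222, 227 and 187 CPM in day0RT to 102, 113 and 113 CPM in day3CL and fell by 0.87 ± 0.16 (1.4e-04), also kept without any single mouse. Nnat, a proteolipid, fell by 1.24 ± 0.21 in day3C and 1.36 ± 0.21 in day3CL from 75.4 ± 12.2 CPM, but its peaks all lie within Blcap and cannot be assigned to either gene. The interferon-inducible Ifi27l2a fell by 1.57 ± 0.26 in day3CL and 1.55 ± 0.27 in day7CL from 47.5 ± 14.8 CPM.

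Of 23 tested thermogenic and beige genes (25 in all), 5 rose in day3CL and 8 in day7CL, where 2.8% and 3.97% of all genes rose. None was called in day1C, day3C, day7C or day1CL, where 0.0592%, 0.666%, 1.13% and 0.851% of all genes rose, so that a count of 0 in 23 is near the background there. With the replicate number as a block Cidea and Ppargc1a were not called in day7CL (edgeR adjusted p = 0.055 and 0.051). The median log2 change of the 23 genes was 0.08, 0.13, 0.21, 0.15, 0.25 and 0.24 in day1C, day3C, day7C, day1CL, day3CL and day7CL. In CL against cold of the same day 1 was higher on day 1 (Alpl), 4 on day 3 (Otop1, Kcnk3, Cidea and Elovl3) and none on day 7, where 0.341%, 1.18% and 0.037% of all genes were higher. With the replicate number as a block Elovl3 was not called (edgeR adjusted p = 0.080). Those counts became 0 on day 1 without any 1 of the 6 mice but replicate 1 of day1CL, and on day 3 they became 2 without replicate 1 of day3C and 1 without replicate 2 of day3CL. Kcnk3, a potassium channel that limits β-adrenergic signalling in fat, was at 136, 123 and 135 CPM in day0RT and 230, 194 and 199 CPM in day3CL. These values did not overlap, and Kcnk3 rose by 0.62 ± 0.13 (log2; edgeR adjusted p = 0.0013) with no single mouse deciding the call. Otop1, a proton channel, was at 16.7, 11.2 and 13.6 CPM in day0RT and 45.8, 34.7 and 36.3 CPM in day7CL, a rise of 1.58 ± 0.30 (3.1e-04) that was lost without replicate 1 of day7CL (0.063). The list's count in day7CL was 1 without that mouse, 4, 4 and 2 without replicates 1, 2 and 3 of day0RT, and 0 with nuclei of 1000 to 4000 counts. In day3CL it was 1, 2 and 2 without replicates 1, 2 and 3 of day0RT and 2 without replicate 2 of day3CL. The whole beige marker sum was 775 CPM in day0RT, 871, 763 and 883 CPM in day1C, day3C and day7C, and 871, 892 and 951 CPM in day1CL, day3CL and day7CL, with Ppargc1b its most abundant gene; the part of nuclei near the border between the white and beige clusters was not tested.

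Other lists overlap those above in part. Of 18 lipolysis and lipid droplet genes 4 fell in day3C, 2 in day7C, 3 in day3CL and 5 in day7CL (Plin1, Plin4, Cidec, the niacin receptor gene Hcar2 and Pnpla2), against 0.444%, 0.74%, 1.57% and 2.78% of all genes, and Cidea rose in day3CL and day7CL. Of 16 triglyceride synthesis and uptake genes 2, 2, 1, 2 and 4 fell in day3C, day7C, day1CL, day3CL and day7CL, among them Dgat1, the last enzyme of triglyceride synthesis, in 3 groups, and Lpin1 rose in day3CL (edgeR adjusted p = 0.059 with the replicate number as a block). Of 16 adipokine genes 3, 4, 3, 4 and 4 fell in the same groups (Adipoq, Angptl4, Nnat and Cfd in day7C, day3CL and day7CL), and Igf1 rose in day3C. Of all genes 1.08% fell in day1CL, and 0.666%, 2.8% and 3.97% rose in day3C, day3CL and day7CL. With the replicate number as a block Plin1 and Aqp7 were not called in day3C, nor Cfd in day7C (edgeR adjusted p = 0.061, 0.051 and 0.053). Bscl2 and Cidea were not called in day7CL under that block (0.064 and 0.055). Without replicate 1 of day7CL the first 2 of these lists had no call in day7CL and the adipokines 1, and without replicate 1 or 2 of day0RT or replicate 1 of day3C the first 2 had none in day3C. Leaving out 1 mouse at a time, the counts that fell ranged over 0 to 4, 0 to 2, 1 to 3 and 0 to 7 for the first list, 0 to 2, 0 to 3, 0 to 1, 1 to 2 and 0 to 4 for the second, and 3 to 3, 2 to 4, 0 to 4, 3 to 4 and 1 to 5 for the adipokines, whose calls in day1CL were all lost without its replicate 3.

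Of 14 glucocorticoid receptor targets and related genes 3 fell in day7C (Angptl4, Zbtb16 and the kinase gene Sgk1), 2 in day3C and day7CL and 1 in day1C and day3CL, where 0.74%, 0.444%, 2.78%, 0.141% and 1.57% of all genes fell in the order day7C, day3C, day7CL, day1C and day3CL. Pik3r1 rose in day3C and Nr3c1, the receptor itself, in day7CL, where 0.666% and 3.97% of all genes rose. With the replicate number as a block Zbtb16 was not called in day7CL (edgeR adjusted p = 0.062). Without replicate 2 or 3 of day0RT or replicate 1 of day7C 1 of the 3 remained called in day7C. Among 16 insulin signalling genes Tbc1d4, which controls glucose transporter traffic, rose in day7C, day3CL and day7CL, Irs2 fell in day3CL and day7CL, Phldb1 fell in day7C, day1CL, day3CL and day7CL, and Pik3r1 rose in day3C. With the replicate number as a block Phldb1 was not called in day3CL (edgeR adjusted p = 0.052). Of all genes 1.13%, 2.8% and 3.97% rose and 0.74%, 1.57% and 2.78% fell in day7C, day3CL and day7CL. Phldb1 fell by 0.88 in day1CL and 0.59 in day7CL (edgeR adjusted p = 4.2e-05 and 3.7e-04), calls kept without any single mouse, whereas those of Tbc1d4 were lost without replicate 1 or 2 of day0RT (0.066 to 0.13), among other omissions.

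Few genes were called in 4 further lists. Of 24 genes of cAMP and β-adrenergic signalling Junb fell in day7CL, 1 of 24 where 2.78% of all genes fell, and Grk3 and Rgs2, which dampen receptor signalling, were higher in day3CL than in day3C (Rgs2 not with the replicate number as a block, edgeR adjusted p = 0.053). Of 20 glycolysis genes Pkm rose in day3CL, of 14 fatty acid oxidation genes Cpt1b rose in day7CL (its peaks all also belong to Gm44502), and of 18 clock genes Clock fell in day3CL and Bhlhe40 was lower in day3CL than in day3C. Bhlhe40 was not called with the replicate number as a block (edgeR adjusted p = 0.17). Single calls in lists of this size are near the background, since 2.8% of all genes rose and 1.57% fell in day3CL, 3.97% rose in day7CL, and 1.18% were higher and 0.74% lower in day3CL than in day3C. Each of these 7 calls was lost without at least 2 different mice, left out 1 at a time.

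Among markers of other cells, 2 of the 9 tested immune genes were called: Pax5 fell in day1CL by 1.17 (edgeR adjusted p = 8.0e-04; 0.60 without replicate 3), and Mrc1 rose in day7CL by 0.85 (0.025; 0.44 without replicate 1), where 1.08% of all genes fell and 3.97% rose. The whole B cell marker sum was 69.0 CPM in day1CL and 132 CPM in day0RT. Myh11, the smooth muscle myosin, rose in day3CL by 0.87 (3.5e-04), kept without any single mouse, and in day7CL by 0.62 (0.023; 0.15 and 0.072 without replicates 1 and 3 of day0RT and 0.30 without replicate 1 of day7CL, and 0.059 with the replicate number as a block), and the mural sum was 167 CPM in day3CL and 121 CPM in day0RT. In day3C the skeletal muscle marker sum was 124, 174 and 137 CPM against 93.1, 115 and 100.2 CPM in day0RT, with no overlap, and the macrophage sum 67.2 CPM against 45.2 CPM. The part of other cells' DNA in the results of these groups was not tested.

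CL and cold were also compared on the same day, to ask whether the agonist and the natural stimulus gave the same accessibility. On day 1, 46 genes were higher (0.341%) and 46 lower (0.341%) under CL, 0.681% together. On day 3, 159 were higher (1.18%) and 100 lower (0.74%), 1.92% together, and on day 7, 5 were higher (0.037%) and 6 lower (0.0444%), 0.0814% together. Of the peaks, 44 were higher (0.135%) and 71 lower (0.218%) on day 1, 0.353% together, 436 higher (1.34%) and 280 lower (0.86%) on day 3, 2.2% together, and 0 higher and 4 lower (0.0123%) on day 7, a comparison added after the data were seen. The day 1 genes numbered 0 without replicate 3 of day1CL, 6 without replicate 1 and 51 without replicate 2 of day1C, and the day 3 genes 45 without replicate 2 of day3CL, and 155, 170 and 163 without replicates 1, 2 and 3 of day3C (259 in all). On day 7 the 11 genes became 4, 4 and 3 without a day7C mouse and 1, 3 and 7 without a day7CL mouse. For peaks, 1 of 115 was called on day 1 without replicate 3 of day1CL and 15 without replicate 1 of day1C, 64 of 716 on day 3 without replicate 2 of day3CL and 335 without replicate 1 of day3C, and 1 or 2 of 4 on day 7 without any mouse but replicate 3 of day7CL. With DESeq2 the genes numbered 0, 14 and 0. With the replicate number as a block 1 peak was called on day 7. Marker sums of other cells moved on each day. The day 1 B cell sum was 58.0, 76.3 and 72.6 CPM under CL against 81.0, 103 and 144 CPM in the cold. The T cell and progenitor sums were also lower in every day1CL mouse than in every day1C mouse. Replicate 1 of day1CL, with 34469 counts on genes, gave 58.0 CPM of T cell and 0 CPM of progenitor markers. All sums of this library rest on very few counts, and the lowest T cell sum of day1C was 59.0 CPM. In day3CL the mural sum was 179, 169 and 154 CPM, above the 138, 132 and 121 CPM of day3C, and Myh11 was called higher. The skeletal muscle sum, 99.0, 99.8 and 114 against 124, 174 and 137 CPM, was lower there. On day 7 all 9 tested immune genes had a positive log2 difference in day7CL against day7C (median 0.31, against -0.01 for all genes), although none was called. The B cell marker sum was 140, 131 and 155 CPM in the day7CL mice against 110, 99.4 and 113 CPM in the day7C mice, the T cell sum 67.7, 65.6 and 68.5 against 46.4, 61.4 and 42.3 CPM, and the dendritic cell sum 114, 125 and 115 against 94.5, 74.1 and 80.1 CPM. The leukocyte marker Ptprc gave 49.5, 50.8 and 52.4 CPM in day7CL against 41.3, 29.6 and 45.8 CPM in day7C. None of these day 7 sums overlapped between the groups, and the macrophage sums did. The marker sums were not tested, and those that overlapped are mostly not given. With 3 against 3 mice, full separation of some sums can arise without a difference. On day 3 the dendritic cell sum was 82.9, 94.1 and 93.6 CPM under CL against 103, 113 and 105 CPM in the cold. The endothelial sum and Ptprc were also lower in every day3CL mouse than in every day3C mouse. The part of these cells' DNA in the differences between CL and cold was not tested.

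Scd1, the stearoyl-CoA desaturase, differed between CL and cold on each day, in both directions. It stood at 311, 402 and 381 CPM in day1C against 116, 261 and 139 CPM in day1CL. On day 3 it stood at 264, 199 and 352 CPM in the cold against 420, 481 and 325 CPM under CL, and on day 7 at 385, 292 and 307 CPM against 189, 141 and 151 CPM. The groups did not overlap on days 1 and 7, and did on day 3. Under CL Scd1 was lower by 1.17 ± 0.19 (log2) on day 1 (edgeR adjusted p = 7.2e-05; 0.66 without replicate 3 of day1CL) and higher by 0.59 ± 0.12 on day 3 (0.0017; 0.29 without replicate 2 of day3CL). On day 7 the change was -0.97 ± 0.14 (1.6e-05), which no single mouse decided but which DESeq2 did not call. The Scd1 peak, chr19:44393866-44395644, whose window is printed above, gave 48.7, 23.6 and 50.7 CPM in day3C and 93.6, 104 and 71.5 CPM in day3CL, and 89.0, 67.9 and 60.9 CPM in day7C and 30.8, 21.2 and 31.3 CPM in day7CL. It was higher by 1.03 on day 3 (2.9e-12) and lower by 1.24 on day 7 (3.1e-07), with no overlap and with both calls kept without any single mouse.

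On day 3, 7 of the 20 lipogenic genes were more open under CL than in the cold (Scd2, Acaca, Acss2, Scd1, Elovl6, Acly and Elovl3) and Elovl5 less open, where 1.18% of all genes were more and 0.74% less open. Without replicate 2 of day3CL 3 remained, and without the 3 mice of few lymphocytes none. Elovl3 was not called with the replicate number as a block (edgeR adjusted p = 0.080). Among the genes less open under CL, Lrp3, a member of the LDL receptor family, was at 163, 157 and 163 CPM in day3C and 61.5, 62.4 and 78.1 CPM in day3CL, a difference of -1.24 ± 0.13 (log2; edgeR adjusted p = 3.1e-11). Ednra, the endothelin A receptor, was at 135, 121 and 166 CPM in day3C and 56.2, 77.5 and 77.5 CPM in day3CL (-0.89 ± 0.12; 3.7e-07). Igf1, the growth factor, had 380, 517 and 435 CPM in day3C and 316, 269 and 274 CPM in day3CL (-0.62 ± 0.11; 1.2e-04). In none of the 3 did the groups overlap, and the calls were kept without any single mouse and without the 3 mice of few lymphocytes. In the same comparison the mural marker sum was higher under CL, and the skeletal muscle, endothelial, dendritic cell and Ptprc sums lower, without overlap. The part of other cells' DNA in these differences was not tested.

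To ask whether the changes differed from those of the surrounding tissue, the change in white adipocytes was compared with that in all nuclei of the same mice that were not adipocytes, with the mouse as a block. Of 15410 genes the difference was called for 0 in day1C, 110 in day3C (0.714%), 0 in day7C, 678 in day1CL (4.4%), 1 in day3CL (0.00649%) and 1 in day7CL (0.00649%) by edgeR's quasi-likelihood test. In day1C and day7C, 1196 and 1110 genes had an unadjusted p under 0.05, and limma-voom called 0 in both. Of the 110 genes in day3C, 93 had the lower change in white adipocytes (0.604%), and of the 678 in day1CL 614 (3.98%). The mix of cells in the other nuclei differed between mice. B and T cells were 36.8% of all nuclei in replicate 1 of day3C and 11.9% in replicate 3 of day1CL. The part of this mix in the differences was not tested. In the other nuclei alone, 1 gene was called in day1C (0.00691%), 6 in day1CL (0.0415%) and 0 in each other group. The gene in day3CL was Acaca, named after its value was seen, whose change was larger in white adipocytes by 1.16 (log2; adjusted p = 0.015). Acly differed by 1.40 in day3CL (0.051), and its change in the other nuclei ran from -0.15 to 0.17 over the 6 groups with no call. The counts of day3C and day1CL turned on few mice: without replicate 1, 2 or 3 of day0RT day3C had 14, 21 or 11 genes and day1CL 342, 395 or 128. Without replicate 1, 2 or 3 of the treated group they were 8, 54 or 413 and 767, 1315 or 0. The count of 1 in day3CL ran from 0 to 21 over the 6 omissions (0, 2 and 0 without replicates 1, 2 and 3 of day0RT, and 2, 3 and 21 without those of day3CL). Against B cell nuclei alone the 6 counts were 89, 8, 12, 80, 23 and 77, and against beige nuclei of the same mice 2, 1, 4, 2, 1 and 0.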

How the data were processed

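Single-nucleus ATAC-seq with combinatorial indexing was analysed from the deposited peak matrix. Per the labels and the study's methods, the authors aligned reads to mm10 with Bowtie2, called peaks with MACS2 in each cluster, filtered shallow nuclei and doublets, and clustered nuclei with Signac. The authors' deposited counts are 0 or 1 per peak and nucleus, so widely open peaks are flattened. The 4 deposited samples are sequencing lanes, and each nucleus's mouse, group and cluster come from the authors' annotation.

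Counts were summed over the white adipocyte nuclei of each mouse, for peaks and for genes (peaks in the gene body and 2000 bases upstream, so a peak can count for overlapping genes). Groups were compared with edgeR 4.0.16 in R 4.3.3 (quasi-likelihood test after TMM scaling, with all 7 groups in 1 fit and a prior count of 2; filterByExpr was set to counts of at least 10 in a proportion of 0.7 of the smallest group and to totals of at least 15), two-sided, with Benjamini-Hochberg adjustment over all genes or peaks and a threshold of 0.05. Shares were tested the same way on nuclei per cluster. The scripts were tested on simulated data. Depth and omitted mice are given beside the results, and alternatives (DESeq2 1.42.0, limma 3.58.1 and others) follow the report. Genes were named by list membership, by size of change (5 in each direction per comparison) or as given markers, and only some are described; a few genes are not reported here. The members and lists were chosen with earlier results of these data known. The study states that its batches were run independently, but not which mice each held. No nucleus index code at the fourth barcode position was used in more than 1 replicate number, so a number may mark a processing round. No code at the second position was used in more than 1 treatment, so an effect of these codes cannot be told apart from treatment. Deviations of equally numbered mice did not correlate, and the fit had no replicate block; the fit with it is given after the report.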

Additional observations from a re-analysis of the deposited data

Results flagged for a closer look

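The effect of CL and of cold of the same length differed for 92 genes on day 1, 259 on day 3 and 11 on day 7 in white adipocyte nuclei, and for 115, 716 and 4 peaks (edgeR's test of CL against cold on the same day). With DESeq2 far fewer genes were called, as given above, and the day 1 calls turned on replicate 3 of day1CL. The following are among the genes with the largest differences by the naming rule, as log2 of CL against cold. On day 1, Trim29 (1.39), Sh3bgrl2 (1.11), Plekhg1 (1.04), Rims4 (0.99) and S100a3 (0.91) were more open under CL. Txnip, a thioredoxin-binding protein (-1.24), the inhibitor of DNA binding Id3 (-1.21), Scd1 (-1.17), the transcription factor Irf4 (-1.16) and Ndrg2 (-1.09) were less open under CL on that day, on which 1 mouse held most of the nuclei of the CL group. The B cell, T cell and progenitor marker sums were also lower in every day1CL mouse than in every day1C mouse. Those of replicate 1 of day1CL, with 34469 counts on genes, rest on very few counts. On day 3, Btn1a1, a protein of milk fat globules (1.28), Sh2d2a (1.08), Sparcl1 (1.05) and Safb (1.04) were more open. Lrp3 (-1.24), the prostaglandin F receptor Ptgfr (-0.98), the T cell antigen Cd2 (-0.98), Dazl (-0.94) and Ednra (-0.89) were less open. With the replicate number as a block Sparcl1 and Cd2 were not called (edgeR adjusted p = 0.092 and 0.11). The day 3 mural marker sum was also higher under CL, and the skeletal muscle, endothelial, dendritic cell and Ptprc sums lower, with no overlap between the groups. On day 7, when the B, T and dendritic cell marker sums were also higher under CL with no overlap between the groups, Serpini1 (1.02), Rp1 (0.98), Alpk3 (0.91) and Pdcd1lg2 (0.81) were more open, and Cpa1 (-1.06), Scd1 (-0.97), Pgm3 (-0.75) and the opsin Opn3 (-0.71) less open. Opn3 was not called with the replicate number as a block (edgeR adjusted p = 0.15).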

How the results depend on the processing

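The white adipocyte results are limited by few nuclei in some mice, by depth that differs between mice, by 3 mice with few lymphocytes and by 3 mice a group, and peaks open in few nuclei are loosely measured. Counts of genes called are given in the order day1C, day3C, day7C, day1CL, day3CL and day7CL against day0RT (27, 150, 253, 261, 590 and 911 as reported), then CL against cold on days 1, 3 and 7 (92, 259 and 11). Where a number is left out, the count stayed within 1.5 times of that reported. The cause of each difference was not tested.

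At an adjusted p under 0.01, 9, 38, 65, 90, 231 and 282 genes were called, and 5, 81, 28, 138, 388 and 263 peaks. DESeq2 called 11, 45, 77, 76, 135 and 151 genes and 0, 14 and 0 between CL and cold, and 0, 2, 0, 6, 14 and 9 peaks and 0, 9 and 0 between CL and cold. Limma-voom with cyclic loess called 8 genes in day1C, 123 in day7C, 377 in day3CL and 555 in day7CL, and 32, 122 and 1 between CL and cold. With no filter on low counts 51 genes were called in day1C, and 0, 72, 14, 127, 591 and 341 peaks, with 19, 357 and 1 between CL and cold. With nuclei of at least 2000 counts 11 genes were called in day1C, 166 in day7C, 144 in day1CL, and 24 and 5 between CL and cold on days 1 and 7, and the peaks numbered 3, 121, 50, 137, 534 and 405. With promoter peaks only, 0, 27, 27, 34, 99 and 65 genes were called and 15, 69 and 2 between CL and cold. RLE factors gave 6 genes between CL and cold on day 7. Fits of only the 2 groups compared gave 26 peaks in day1C, 208 in day3C, 126 in day1CL and 538 in day7CL.

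Chosen after seeing the data, nuclei of 1000 to 4000 counts gave 8, 27, 25, 50, 117 and 44 genes and 5, 22 and 1 between CL and cold, and 0, 14, 4, 26, 62 and 6 peaks and 8, 8 and 1 between CL and cold. Also chosen after seeing the data, leaving out the 2 mice with fewer than 100 white adipocyte nuclei gave 166 genes in day1CL, 51 and 5 between CL and cold on days 1 and 7, 1287 peaks in day7CL and 74 between CL and cold on day 1. Leaving out the 3 mice with few lymphocytes gave 72 genes in day3C, 4 in day1CL and 195 in day3CL, 2 and 24 between CL and cold on days 1 and 3, and 142, 0 and 244 peaks in the same 3 groups, with 1 and 61 between CL and cold.

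Leaving out 1 mouse at a time, the gene counts ranged over 0 to 54, 60 to 155, 73 to 187, 4 to 226, 182 to 577 and 117 to 1028, and between CL and cold over 0 to 107, 45 to 278 and 1 to 7. The peak counts ranged over 2 to 127, 64 to 363, 36 to 156, 0 to 429, 252 to 1113 and 101 to 1210, and between CL and cold over 1 to 131, 64 to 842 and 1 to 4. The number of genes whose change differed between white adipocytes and other nuclei ranged over 0 to 0, 8 to 413, 0 to 0, 0 to 1315, 0 to 21 and 0 to 1. The log2 difference in the share of white adipocytes ranged over -0.020 to 0.79, -0.071 to 1.10, 0.03 to 0.48, -1.90 to 1.21, 0.55 to 1.92 and 0.48 to 0.89, turning in direction without replicate 1 of day1C (-0.020), replicate 1 of day3C (-0.071) and replicate 3 of day1CL (-1.90). With nuclei other than B and T cells as the total, the day1CL difference was -0.25.

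Against B cell nuclei only, the difference of the change was called for 89, 8, 12, 80, 23 and 77 genes, against beige adipocyte nuclei for 2, 1, 4, 2, 1 and 0, and limma-voom with the mouse as a block called 2 in day3CL. Index codes differ between replicate numbers, which may therefore mark processing rounds, but over 63 pairs of the same number the deviations correlated with r from -0.129 to 0.118 (median -0.00014), and 8 of 21 mice correlated best with a mouse of their own number. With the replicate block, 25, 122, 238, 289, 565 and 672 genes and 86, 209 and 12 between CL and cold were called, and 30, 214, 166, 454, 956 and 586 peaks with 106, 476 and 1 between CL and cold. Under the block 27 of 242 called results for named genes and 18 of 154 for peaks missed the threshold, among them Fads2 in day7CL (adjusted p = 0.059), Cfd in day7C (0.053), Plin1 and Aqp7 in day3C (0.061 and 0.051), Cidea and Myh11 in day7CL (0.055 and 0.059), Zbtb16 in day7CL (0.062), Lpin1 and Phldb1 in day3CL (0.059 and 0.052), and, between CL and cold, Elovl3, Rgs2, Sparcl1 and Cd2 on day 3 (0.080, 0.053, 0.092 and 0.11) and Opn3 on day 7 (0.15).

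With promoter peaks only, the sign turned for Acaca (-0.31 in day1CL, -0.44 in day3C, -0.50 in day3CL, -0.58 in day7C, -0.55 in day7CL and -0.061 for CL against cold on day 3), Lpin1 (-0.16 in day3CL and -0.45 for CL against cold on day 3) and Med16 (0.14 in day1CL, 0.056 in day3CL and 0.039 in day7C). The sign of Pdcd1lg2 in day1CL turned to -0.035 with nuclei of 1000 to 4000 counts, and that of the peak chr19:44405409-44405897, between CL and cold on day 3, to -0.074 without the 3 mice with few lymphocytes. Of 242 results for named genes 191 lost their call without at least 1 mouse, and of 154 for peaks 116. Of the named genes with an adjusted p from DESeq2, 68 of 167 kept their call, and of the peaks 20 of 154.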
